A study of Homo sapiens with 6 samples.

Results

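The loops described here are the chromatin loops of the outermost 3 Mb of the human autosomes in HAP1 cells. A loop is a pair of anchors on 1 chromosome that meet more often than the map around them predicts. Loops were taken when both anchors lay in the first 3 Mb of a chromosome or in the last 3 Mb below the highest anchor coordinate that the list holds for that chromosome. Chromosomes 13, 14, 15, 21 and 22, whose short arms are acrocentric, contributed a q end only. The rule used positions alone and gave 1817 loops on 39 ends, 787 of them on 17 p ends and 1030 on 22 q ends, out of 46849 loops in all (3.88%) and 44904 on the autosomes (4.05%). The p ends were counted from the first base of the chromosome, but the q ends from the last loop anchor, so the sequence beyond that anchor belongs to no window.

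The study mapped regulatory elements in HAP1, a near-haploid human line that was made from KBM-7 leukaemia cells. HAP1 carries the Philadelphia translocation, which joins chromosomes 9 and 22, so that positions here are those of the reference genome and not of the rearranged chromosomes. Per the labels' protocols, wild-type cells that had become diploid were sorted by their Hoechst DNA stain, fixed with formaldehyde and then DSG, and digested to nucleosomes with micrococcal nuclease (Micro-C). The 6 replicates form 1 group, nothing in the labels says whether they were separate cultures, and the authors deposited 1 loop list for all of them, without library depths.

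Subtelomeres lie between the telomere repeats and the unique sequence of a chromosome arm. They hold segmental duplications and gene families that several chromosome ends share, such as olfactory receptor genes, and reads from such copies are hard to place. Many human chromosome ends are also rich in genes, and loops in human cells form largely where cohesin is held by CTCF bound to DNA, or between enhancers and promoters. Since all replicates are pooled in 1 list, there is no spread over samples and no test is given. Intervals are exact 95% intervals for counts and shares and order-statistic intervals for medians. They cover counting error only, and they are too narrow because loops share anchors and libraries.

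Chromosome ends held about as many loops as interior windows of the same size. The 39 ends averaged 46.6 ± 19.0 loops (SD over ends, median 51), against 46.4 ± 19.6 in 816 interior windows of 3 Mb (median 46). The number at the ends ran from 10 to 95, within the range of 5 to 122 among interior windows. By this measure 19 ends held more loops than the median window of their own chromosome, and 20 held fewer. Per Mb, the ends had 15.5 loops (interval 14.8 to 16.3) and the whole interior 16.9 (16.7 to 17.0), a ratio of 0.920 (0.877 to 0.964). The whole interior also counts loops that cross window borders, and with interior loops confined to 3 Mb windows, as end loops are, the ratio was 1.004, so the direction depends on that choice.

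**Figure D1:**
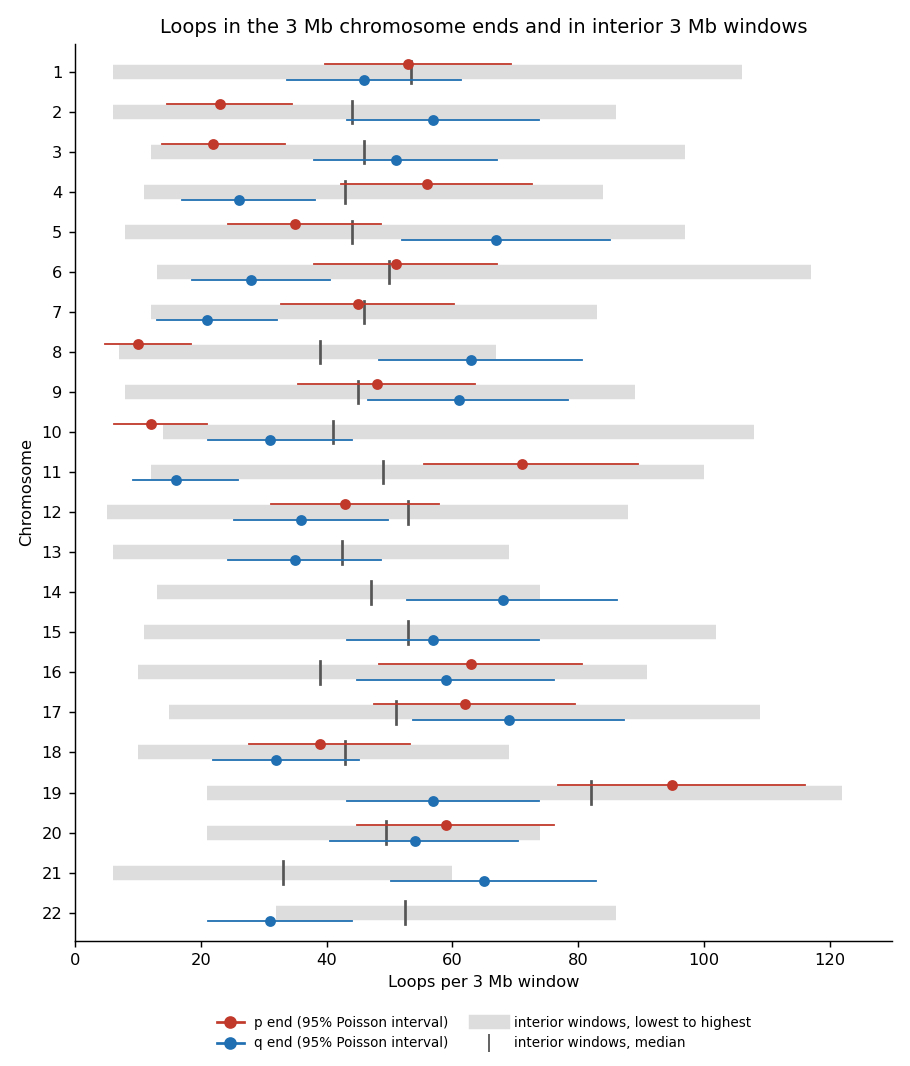
Loops in each 3 Mb chromosome end (points, with exact Poisson 95% intervals, p above q) beside the lowest-to-highest range and the median of the interior 3 Mb windows of the same chromosome. Most ends lie inside the range of their own chromosome; 21q lies above it with 65 loops, and 10p and 22q lie below it with 12 and 31.

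The ends with most loops were 19p with 95, 11p with 71, 17q with 69, 14q with 68 and 5q with 67. Only 1 end exceeded every interior window of its chromosome, 21q, with 65 loops (exact Poisson interval 50.2 to 82.8). Chromosome 21 has only 9 such windows, with at most 60 loops, a count that this interval held. In the gene order of the GRCh38 annotation, the outermost genes at 21q include COL6A1 and COL6A2, which encode collagen VI chains, PCNT, which encodes a centrosome protein, and ADARB1, an RNA-editing enzyme. Those at 17q include FASN, the fatty acid synthase, and TBCD, a tubulin chaperone. Those at 14q include AKT1, a growth-signalling kinase, and JAG2, a Notch ligand. The annotation is of another build than the loop coordinates, so it names the neighbourhood of an end and places no loop at a gene. Genes named at an end, here and further on, are landmarks picked from its outermost genes after the values had been seen.

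The ends with fewest loops were 8p with 10 (exact Poisson interval 4.80 to 18.4), 10p with 12, 11q with 16 (9.15 to 26.0), 7q with 21 and 3p with 22 (13.8 to 33.3). Of these, 10p held fewer loops than any interior window of its chromosome (at least 14), as did 22q, with 31 against at least 32.

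Loops were missing from long parts of the sparse ends. The longest stretch without an anchor inside a window was on 10p, from 1415001 to 2970000 (hg19), or 1555 kb. Similar stretches of 1240 kb on 10q, 1195 kb on 22q and 1040 kb on 11q lay at the inner edge of the window, and one of 995 kb lay inside 8p (685001 to 1680000). Loops spanned 30.5% of the 8p window and 31.3% of the 10p window. At the other extreme they spanned 97.5% of 3q, 97.3% of 14q and 97.2% of 21q. The median over the ends was 81.5%, against 88.3% over interior windows. Whether reads could be placed in the empty stretches is not recorded in the list.

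At the p ends the distance from the first base to the first anchor is known from the reference coordinates. It ran from 115 kb to 805 kb with a median of 220 kb, and the largest was at 1p. The 3 loops nearest to a p end were on 16p, 10p and 3p. The 16p loop ran between 115001 to 120000 and 155001 to 160000 and had 46 contacts, where 20.3 were expected. The outermost genes of 16p include NPRL3 and the alpha-globin genes HBA1 and HBA2, whose distal enhancers are known to lie within NPRL3. The 10p loop, between 135001 to 140000 and 175001 to 180000, had 27 contacts where 11.5 were expected. The 3p loop, between 145001 to 150000 and 180001 to 185000, had 74 where 19.7 were expected. All 3 were short, at 35 to 40 kb.

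Loops at the ends were shorter than interior loops. Their median span was 110 kb (interval 105 to 120, quartiles 55 and 260), against 140 kb in interior 3 Mb windows and 160 kb (160 to 165) in the whole interior. Among 5 kb calls the median was 95 kb at the ends (90 to 100), 115 kb in interior 3 Mb windows and 130 kb in the whole interior. Among 10 kb calls it was 310 kb at the ends (260 to 360), and this interval held the 340 kb of interior 3 Mb windows. In the whole interior, where loops of 3 Mb or more were left out, it was 370 kb. Spans under 100 kb made up 45.7% of end loops, against 38.7% in interior windows. Spans of 1 Mb or more made up 1.65% (30 loops) and 2.05%. The shift was spread over the ends: 31 of 39 had a shorter median than the interior windows of their own chromosome, and 8 had a longer one. The medians of single ends ran from 72.5 kb at 3p to 232.5 kb at 6q.

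**Figure D2:**
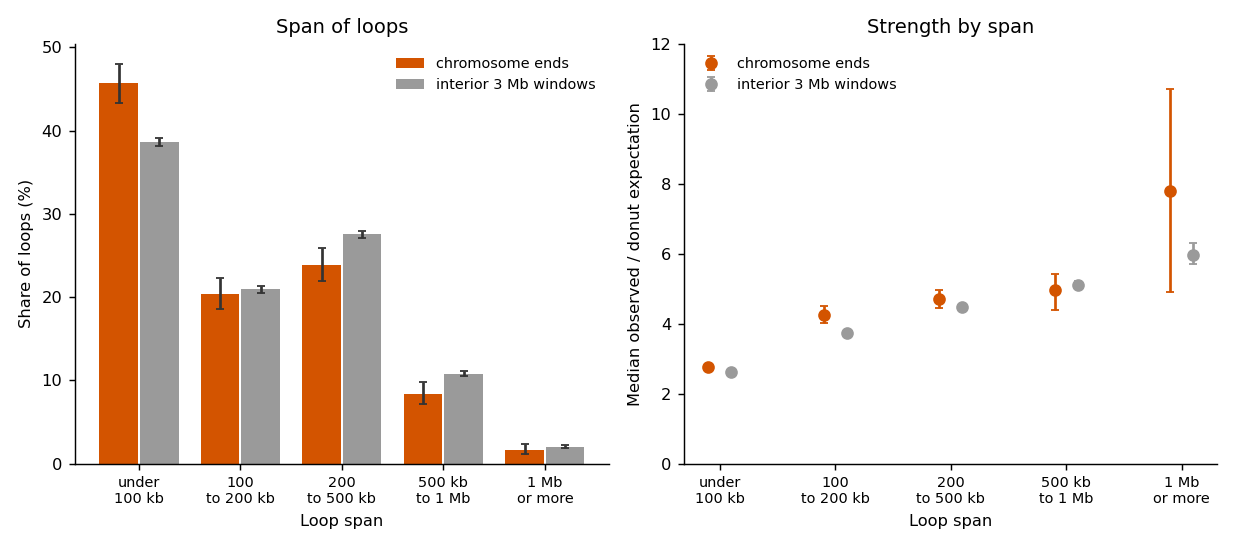
Left, share of loops in 5 span classes (bars with exact binomial 95% intervals); right, median ratio of observed contacts to the donut expectation in the same classes (points with 95% order-statistic intervals), for chromosome ends and interior 3 Mb windows. Loops under 100 kb are 45.7% at the ends and 38.7% in the interior windows, and the ratio is higher with span in both.

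The span of loops was shortest next to the end, at the p ends and at the q ends alike. By the position of the loop midpoint, the median was 100 kb in the outermost Mb, 130 kb in the second and 130 kb in the third. It was 150 kb from 3 to 5 Mb, 165 kb from 5 to 10 Mb and 160 kb beyond. In the outermost 0.5 Mb alone it was 80 kb (75 to 95). A loop centred near the end cannot be long without running past it, and the part of this limit in the low value was not tested. In the outermost Mb the median was 95 kb at the p ends and 105 kb at the q ends.

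Loop number followed a different course at the p ends and at the q ends, whose distances start from different points. The p ends, counted from the first base, had 13.6 loops per Mb in the outermost Mb, 18.3 in the second and 15.6 in the third. The q ends, counted from the last anchor, had 19.6 in the outermost Mb, 17.6 in the second and 11.5 in the third. The gap was widest in the outermost 0.5 Mb, with 7.53 loops per Mb at the p ends and 20.5 at the q ends. The stretch before the first anchor lies inside a p window, whereas a q window by its definition starts at an anchor. From 3 to 5 Mb the values were 17.5 at p and 16.1 at q, and from 5 to 10 Mb 15.2 at p and 15.6 at q. Over all ends together they were 17.0, 17.9 and 13.3 in the 3 outermost Mb. The second Mb was thus the highest, as at the p ends, and the third the lowest, as at the q ends.

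**Figure D3:**
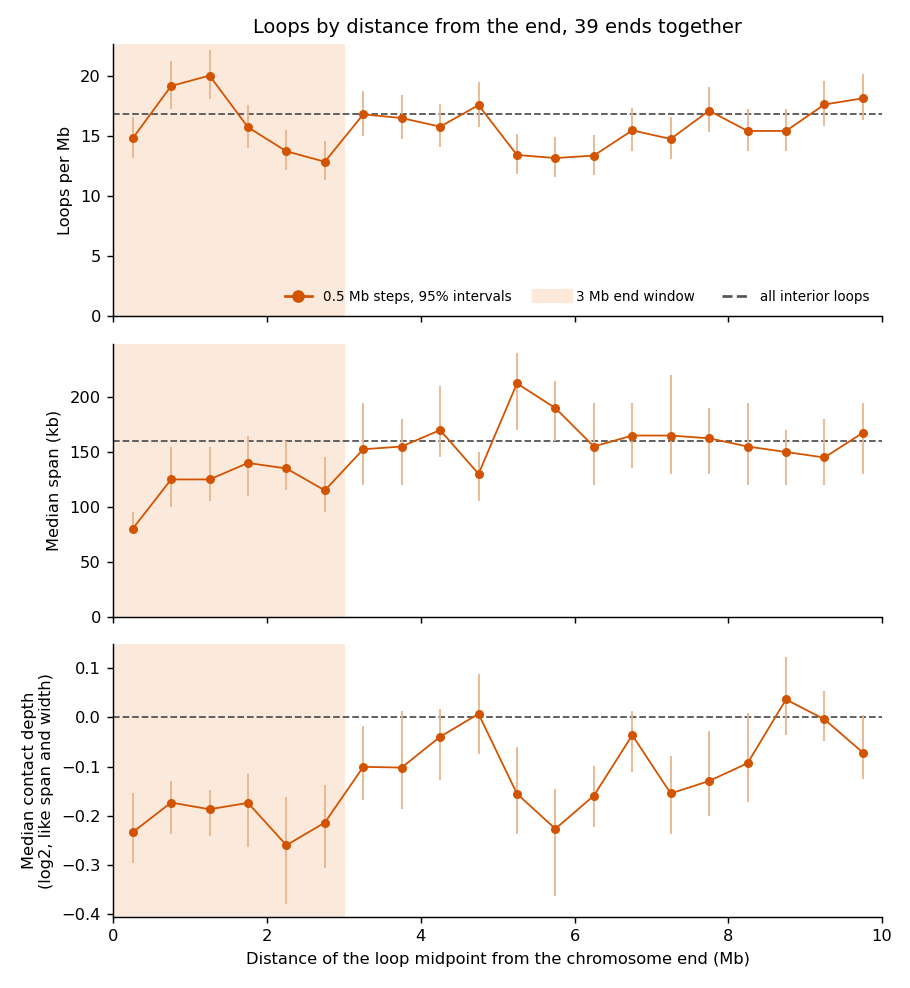
Loops per Mb, median span and median contact depth in 0.5 Mb steps of the loop midpoint's distance from the end, for 39 ends together (points with 95% intervals; the shaded part is the 3 Mb window and the dashed line the value of all interior loops). The 6 steps inside the window all lie below 0 in contact depth, as do 12 of the 14 steps from 3 to 10 Mb, whereas loops per Mb pool unlike arms, with 7.53 at the p ends and 20.5 at the q ends in the first step.

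End loops stood on a lower contact background than interior loops of like size. For each loop the caller deposited the contacts expected at its pixel from a ring of neighbouring pixels, called the donut expectation. Contact depth is the log2 of that expectation minus the median for interior autosomal loops of like span and the same anchor width, so that the interior median is 0. Its median at the ends was -0.20 (interval -0.23 to -0.17, quartiles -0.54 and 0.10), or 0.869 times that of like interior loops (0.853 to 0.888). Below 0 lay 67.3% of end loops, against 50.0% of interior loops. The low background was not confined to the window. By the loop midpoint, median depth was -0.06 (-0.10 to -0.01) from 3 to 5 Mb and -0.09 (-0.11 to -0.07) from 5 to 10 Mb, against 0.01 beyond. From 3 to 5 Mb it was -0.12 at the p ends and 0.02 at the q ends. The step from 5.5 to 6 Mb, at -0.23 (-0.36 to -0.14), was as low as the ends. Without this matching the difference was hidden, since end loops are shorter and short loops have higher expectations: the unmatched median was 8.78 contacts at the ends and 8.68 in the interior.

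The lower background was shared by most ends. In 34 of 39 ends the median depth lay below 0, against 479 of 816 interior windows (58.7%), and 34 ends also lay below the interior of their own chromosome. The interval of the median lay wholly below 0 in 25 ends, held 0 in 14 and lay wholly above 0 in none. End medians averaged -0.22 ± 0.19 (SD, 39 ends) and interior window medians -0.09 ± 0.33 (SD, 816 windows), so that an average end lies well within the spread of interior windows. All 5 span classes had a median between -0.15 and -0.22, with the interval of the longest class, of 30 loops, running from -0.60 to 0.15. Chromosomes 1 and 15 have interior stretches of higher contact depth, and without these the median of the ends was -0.17. The comparison of each end with its own chromosome was made with these stretches included.

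**Figure D4:**
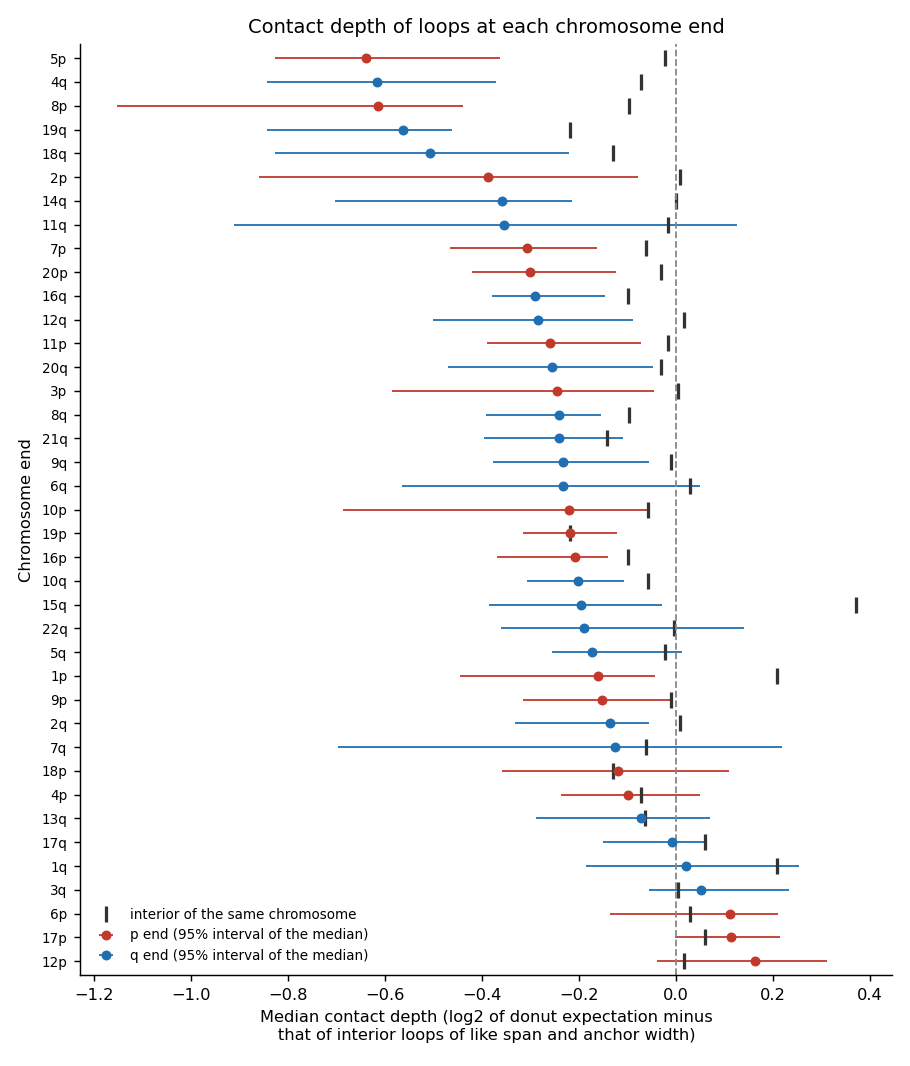
Median contact depth of the loops at each of 39 ends (points with 95% order-statistic intervals, p and q ends coloured) and of the interior of the same chromosome (black marks), in log2 units relative to interior loops of like span and anchor width. The ends are sorted from 5p at -0.64 to 12p at 0.16, and 34 of them lie to the left of 0.

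The lowest median depths were at 5p (-0.64), 4q (-0.62), 8p (-0.62), 19q (-0.56) and 18q (-0.51). The highest were at 12p (0.16), 17p (0.11), 6p (0.11), 3q (0.05) and 1q (0.02). Of these, 1q lay below the interior of its own chromosome (0.21, a value that includes the deeper stretch of chromosome 1), and the others lay above theirs. The 5 lowest ends all lay below the interior of their own chromosome, which for 19q was itself at -0.22. All 5 low ends had intervals wholly below 0, from -0.83 to -0.36 at 5p and from -0.84 to -0.46 at 19q, and all 5 high ends had intervals that held 0. The outermost genes of 5p include TERT, the catalytic subunit of telomerase, and those of 4q include DUX4, a gene in a repeat array. Those of 19q include several zinc finger genes and TRIM28, which encodes the corepressor that many zinc finger proteins bind. The list does not tell a lower number of contacts made from a lower number of reads placed at these ends, and their parts in the result were not tested.

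Few end loops had a strongly raised background. Over all autosomal loops, 3.7% had at least 2 times the donut expectation of like interior loops, and at the ends 16 did (0.881%, interval 0.504 to 1.43%), on 10 ends. An expectation of 0.5 times that of like interior loops or less was found for 5.16% of autosomal loops and for 130 end loops (7.15%, 6.01 to 8.44%). The interior shares were 3.82% and 5.04%. The autosomal and interior shares include the deeper interior stretches of chromosomes 1 and 15, where window medians of depth reached 1.11. No end window lies in these stretches, and the shares without them were not computed. The end loops of low background lay on 37 of 39 ends, with 17 on 14q, 10 on 19q and 9 on 5p.

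Observed contacts were lower as well, though by less than the background. Matched for span and width, the observed count of end loops had a median of -0.14 on the log2 scale (-0.17 to -0.10), or 0.909 times that of like interior loops. Unmatched, the median was 31 contacts at the ends and in the whole interior, and 32 in interior 3 Mb windows. The quartiles were 22 and 47 at the ends and 21 and 48 in the whole interior. The ratio of observed to donut-expected contacts, called strength here, was correspondingly slightly higher for end loops, by 0.08 on the log2 scale (0.05 to 0.10), or 1.05 times that of like interior loops. It lay above the value for like interior loops in 57.8% of end loops and in the medians of 28 of 39 ends. The caller admits a loop by its ratio and its significance, so a low background and a high ratio are tied by the selection of loops, and the part of that selection was not tested. The unmatched median strength was 3.53 at the ends and 3.55 in the interior.

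Within the ends, strength was higher in the longer span classes, as in the interior. The median ratio was 2.75 under 100 kb, 4.25 from 100 to 200 kb, 4.72 from 200 to 500 kb, 4.98 from 500 kb to 1 Mb and 7.79 at 1 Mb or more. Interior 3 Mb windows had 2.62, 3.74, 4.48, 5.11 and 5.97 in the same classes. The ends were higher in the first and second classes, where the intervals of the ends did not reach the interior value, and in the third class the interval (4.44 to 4.96) held it. In the class of 500 kb to 1 Mb the ends were lower, and their interval (4.38 to 5.42) held the interior value, as did that of the longest class (4.90 to 10.7).

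**Figure D5:**
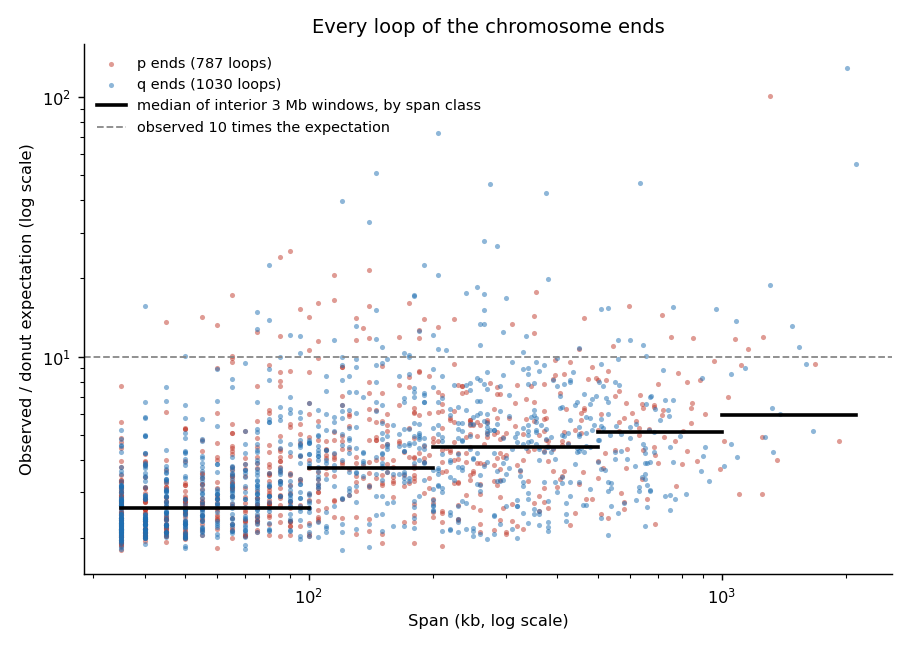
Span (log scale) and ratio of observed contacts to the donut expectation (log scale) for each of the 1817 end loops, p and q ends coloured, with the interior window medians as black bars and a dashed line at a ratio of 10. Above that line lie 104 loops, and the pair with the highest ratios, 129 and 101, span over 1 Mb.

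The share of strong loops at the ends was close to that elsewhere. A ratio of 10 or more was reached by 5.66% of all autosomal loops, by 104 end loops (5.72%, interval 4.70 to 6.89%) and by 5.61% of interior loops. The strong loops of the ends had a median span of 205 kb and 73 observed contacts, against 345 kb and 63 contacts for those of the interior. They lay on 29 of 39 ends. The count was highest on 11p, with 11 of its 71 loops, 14q with 10 of 68, 15q with 8 of 57 and 12q with 7 of 36, whereas 10 ends had none.

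The strongest loops, ranked among those with a donut value of 1 or more, came from few ends. The first, on 12q, ran between 131830001 to 131835000 and 132105001 to 132110000 and had 91 contacts (exact Poisson interval 73.3 to 112) against 1.98 expected, a ratio of 46.0. A second 12q loop joined 131775001 to 131780000 with 132150001 to 132155000 around it, with 46 contacts (33.7 to 61.4) against 1.08, a ratio of 42.8. The second loop encloses the first, at 375 against 275 kb. Both stood on a low background, with contact depths of -2.00 for the outer and -1.47 for the inner loop. The ranking leaves out 9 end loops that had a ratio of at least 10 but a donut value under 1. Among them, a 205 kb loop on 1q joined 248605001 to 248610000 with 248810001 to 248815000. It had 51 contacts over 6 pixels against 0.701 expected, a ratio of 72.7.

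The 14q end gave 4 of the 10 strongest loops. They joined 106045001 to 106050000 with 106165001 to 106170000 (102 contacts against 2.57 expected, ratio 39.7) and 106975001 to 106980000 with 107115001 to 107120000 (62 against 1.89, ratio 32.8). The other two joined 106650001 to 106655000 with 106840001 to 106845000 (27 contacts, ratio 22.6) and 106860001 to 106865000 with 106940001 to 106945000 (54 contacts, ratio 22.5). All 4 lay in the outermost 1.1 Mb of the window and had depths of -1.81 to -2.51. The immunoglobulin heavy chain genes, which are rearranged in B cells and rich in near-identical copies, are known to lie at the end of 14q, but no annotation of this build was used to place the loops in them.

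The remaining 4 of the 10 lay on 3q, 5p and 20p. On 3q, 195415001 to 195420000 was joined with 195680001 to 195685000 by 48 contacts against 1.73 expected, a ratio of 27.7. A pair on 5p overlapped. It joined 750001 to 755000 with 840001 to 845000 (66 contacts, ratio 25.6) and 710001 to 715000 with 795001 to 800000 (141 contacts, ratio 24.2), and each loop merged 15 significant pixels. On 20p, 795001 to 800000 was joined with 935001 to 940000 by 139 contacts against 6.43 expected, a ratio of 21.6. All 10 had contact depths below 0, from -2.51 to -0.42. Since a small expectation makes a high ratio, the ranking by ratio favours loops on a low background.

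By contact count the leading loops were others. A 60 kb loop on 5q with 10 kb anchors (180610001 to 180620000 with 180670001 to 180680000) had 256 contacts against 94.9 expected, a ratio of 2.70 only. A pixel of 10 kb anchors covers a larger part of the map than that of a 5 kb loop, so its count is not comparable with the next. On 19p, 920001 to 925000 was joined with 980001 to 985000 by 240 contacts against 18.1, a ratio of 13.2. On 6p, 2845001 to 2850000 was joined with 2930001 to 2935000 by 227 contacts against 18.9, and this loop merged 56 significant pixels, the most of any end loop. A pair on 3q had 198 contacts each, at 194990001 to 194995000 with 195245001 to 195250000 (ratio 18.5) and at 196335001 to 196340000 with 196410001 to 196415000 (ratio 12.8). These 5 loops all had contact depths above 0, from 0.37 to 1.06, unlike those that lead by ratio. A ranking by count favours loops on a high background, as a ranking by ratio favours those on a low one. The contrast is therefore tied to the rankings and is no separate result about these loops.

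The longest end loops had few contacts, as did long loops elsewhere. The median at 1 Mb or more was 19.5 contacts at the ends and 18 in interior 3 Mb windows. A loop of 2.11 Mb on 4q (188425001 to 188430000 with 190535001 to 190540000) had 15 contacts against 0.273 expected. A loop of 2.01 Mb on 15q (100320001 to 100325000 with 102330001 to 102335000) had 21 contacts against 0.163, which gave the highest ratio of all end loops, 129. Both rested on a single pixel, and a ratio to so small an expectation has little precision. A pair on 18p was nested. It joined 650001 to 660000 with 2570001 to 2580000 (1.92 Mb, 26 contacts) and 860001 to 865000 with 2545001 to 2550000 (1.685 Mb, 28 contacts over 5 pixels). The fifth joined 75470001 to 75480000 with 77130001 to 77140000 on 18q (1.66 Mb, 10 contacts).

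Anchors were shared among end loops, a little less than in the interior. At least 1 anchor was shared with another loop by 85.4% of end loops (83.7 to 87.0%), against 90.0% of interior loops, after overlapping anchors had been merged. Loops per anchor averaged 1.82 at the ends and 1.98 in the interior. Anchors with 5 or more loops were 99 of 2091 at the ends (4.73%, 3.86 to 5.73%) and 2978 of 43374 in the interior (6.87%, 6.63 to 7.11%). They occurred on 34 of 39 ends. These counts of loops per anchor include the loops that leave a window. With a merging distance of 10 kb for anchors, the difference in sharing was -0.56 percentage points, against -4.56 as given.

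Anchors that sent all their loops one way pointed inward more often than outward. Of 182 one-sided anchors with 3 or more loops, 113 (62.1%, interval 54.6 to 69.2%) sent them away from the chromosome end, and of 23 with 5 or more, 15 did (65.2%, 42.7 to 83.6%). Anchors near the end have more sequence on their inner side, so an even split is not what the geometry gives, and no expected value was computed. Among anchors with 5 or more loops, 23.2% were one-sided at the ends and 31.0% in the interior.

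Ranked by end loops only, the anchor with the most lay on 14q, at 105950001 to 105960000, with 9 loops of 35 to 675 kb, 8 of them inward. The strongest of these ran 120 kb inward with 74 contacts and a ratio of 8.11, and its neighbours in span, at 75 and 190 kb, had ratios of 2.81 and 6.71. Next came 18q at 76740001 to 76750000, also with 9 end loops and with a further loop that left the window. Its ratios peaked at 11.1 for a loop 260 kb inward (55 contacts) and at 10.4 for one 330 kb inward. A pair of anchors on 2q was itself joined: 242290001 to 242300000, with 8 loops, and 242820001 to 242830000, with 7 loops that all ran inward. The loop between this pair, 530 kb long with 49 contacts, had the highest ratio of both anchors, 15.3.

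The same arrangement was found on 9q. There 140040001 to 140050000, with 8 loops, and 139685001 to 139690000, with 7, were joined by a 360 kb loop of 58 contacts that merged 11 pixels, with a ratio of 8.84. The 8 loops of 8q at 146120001 to 146130000 had more even ratios, from 3.31 to 6.62. Those of 1p at 1440001 to 1450000 (7 loops, 2.72 to 4.41) were weaker, and those of 4q at 190120001 to 190130000 (7 loops, 3.76 to 9.40) reached up to 1595 kb inward. In all, 8 anchors held 7 end loops. Of these, 1p, 2q, 4q, 9q and 11p are described here by the order of chromosomes, and the others lay on 12p (1050001 to 1060000), 15q (100240001 to 100250000) and 19p (1240001 to 1250000). When loops that leave the window were counted too, 8 anchors at the ends had 8 or more loops. The additional ones lay on 4p (2960001 to 2970000, 8 loops with 2 that left), 19p (2780001 to 2790000, 8 with 3) and 19q (56110001 to 56115000, 9 with 8), near the inner border of their windows.

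The best supported of these anchors was on 11p, at 2020001 to 2025000. Its 7 loops had a median of 107 contacts and a median ratio of 9.13, the highest of the 10 anchors described. Toward the end of the chromosome it was joined to 1670001 to 1675000 by 147 contacts (ratio 14.4), to 1710001 to 1715000 by 107 (13.4), to 1855001 to 1860000 by 103 (11.9) and to 1900001 to 1905000 by 121 (9.13). A weaker loop to 1565001 to 1570000, 455 kb away, had 23 contacts, and the nearest, to 1970001 to 1975000, had 87. On the inner side there was 1 loop, to 2170001 to 2175000, with 110 contacts in a single pixel. Of the 11 loops on 11p with a ratio of at least 10, this anchor holds 3. The imprinted genes H19 and IGF2, whose known control region binds CTCF on 1 parental copy, lie near the end of 11p, but no hg19 annotation was used here to say which gene the anchor is at.

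By these windows the p and q ends held much the same number of loops. On the 17 chromosomes with both, the p ends held 787 loops and the q ends 774, a ratio of 1.02 (interval 0.920 to 1.12). The p end had more on 10 chromosomes and the q end on 7. The p windows start at the first base, but the q windows at the last anchor. With p windows started at the first anchor instead, the ratio was 1.14 (1.03 to 1.25), with more loops at p again on 10 chromosomes. Single chromosomes were far from even. On chromosome 11 the p end had 71 loops and the q end 16, on chromosome 19 the counts were 95 at p and 57 at q, and on chromosome 4 they were 56 at p and 26 at q. The reverse was seen on chromosome 8, with 10 loops at p and 63 at q, and on chromosome 2, with 23 at p and 57 at q. Chromosomes 16 (63 at p, 59 at q) and 20 (59 at p, 54 at q) were close to even.

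Contact depth likewise showed no common direction between arms from chromosome to chromosome. The median was higher at the p end on 9 chromosomes and at the q end on 8. The difference of the pooled medians, p minus q, was 0.05 (interval 0.004 to 0.078, with the q median taken as fixed). This difference stayed positive in the alternatives, but its lower limit was -0.012 for 5 kb loops and -0.0018 without single-pixel loops. The widest gaps were on chromosome 4 (-0.10 at p, -0.62 at q), chromosome 5 (-0.64 at p, -0.17 at q) and chromosome 12 (0.16 at p, -0.29 at q). Median span was longer at the p end on 7 chromosomes and at the q end on 10. Strength was higher at the p end on 6 chromosomes and at the q end on 11.

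In how they were called, end loops resembled interior loops. The share with 10 kb anchors was 13.4% (243 loops, interval 11.8 to 15.0%) at the ends and 15.1% in the interior, or 13.9% in interior 3 Mb windows. The median loop was built from 3 significant pixels in both sets, and single-pixel loops were 9.36% at the ends and 8.84% in the interior. All 4 q-values were at or below 0.1 for 73.1% of end loops and 72.1% of interior loops. Every end loop had at least 8 observed contacts, so weaker loops are not in the list at any position.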

How the data were processed

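Micro-C was done on 6 replicates of 1 group, and the authors deposited 1 loop list for all of them. Per the file header it was written by juicer_tools 1.22.01, and the submitters' processing notes name BWA and hg19. For library depths, pooling and caller settings, the sources used here give nothing. For every loop the authors deposited observed contacts as whole raw counts, expected counts from the surroundings (here the donut, with the lower-left as an alternative), and 4 q-values (adjusted p-values), with merged pixel counts and loop positions and cluster radius in bp. No value is normalized between libraries. From these were computed span (between anchor midpoints), strength (observed over donut expectation) and log2 contact depth, relative to the median of interior autosomal loops of the same anchor width in 40 span bins. Interior loops touch no end window. Their length for densities ran from first to last loop, less end windows and anchor-free stretches of at least 3 Mb. Overlapping anchors (1 bp or more) were merged. The list has 0 unused sample columns.

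The ends and loops named are the 5 ends with most and fewest loops and with highest and lowest depth, the 10 strongest loops with an expectation of at least 1, the 5 with most contacts, the 5 longest, the 10 anchors with most end loops (ties to the lower chromosome number), the 3 loops nearest a p end (at q ends the last anchor defines the end) and the longest anchor-free stretch. Others were chosen after their values were seen. Members and lists were chosen with earlier results of these data known. Gene names come from the order of genes in GRCh38.p14, with no coordinates used. Alternatives changed the window, the p end, anchor width, q-value limit, span bins, the expectation used, anchor merging and the interior set. Replicates could not be left out. Computation used scipy 1.17.1, pandas 2.3.3 and numpy 2.4.6 under Python 3.11.15, figures matplotlib 3.10.9, and functions were tested on simulated data.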

Additional observations from a re-analysis of the deposited data

How the results depend on the processing

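Of 125 alternative values, 119 kept the direction given. Confining the interior to 3 Mb windows and leaving out each end in turn were chosen after seeing the data. Contact depth at the ends (-0.20) stayed below 0 in every alternative run, at -0.15 with 5 Mb windows and -0.25 with all q-values at most 0.1. The density ratio (0.920) was 0.973 with 2 Mb windows, 0.966 with p ends counted from the first anchor, 0.812 for 10 kb loops and 1.004 against interior 3 Mb windows, which reverses it. The ratio of median spans (0.688 against the interior) was 0.781 with 5 Mb windows, 0.838 for 10 kb loops and 0.786 against interior 3 Mb windows. Strength was higher by 0.0463 (log2) when matched within the chromosome, against 0.08. With 5 Mb windows, observed contacts were at -0.074 (log2) against -0.14 and the sharing difference was -2.38 percentage points; it was -0.56 with anchors within 10 kb merged. The p to q ratio (1.02) was 1.14 with p ends from the first anchor and 0.989 over all 39 ends, a reversal. The share of loops with more merged pixels than like interior loops (-0.52 percentage points) reversed to 0.29 with 2 Mb windows, 0.58 for 10 kb loops, 0.63 without the deeper stretches of chromosomes 1 and 15, and 0.14 within the chromosome. The causes of these changes were not tested. Leaving out each end gave 0.894 (without 19p) to 0.939 (without 8p) for density and -0.21 to -0.19 for depth. No paired analysis was possible because the replicates form 1 group in 1 pooled list. Depth limits single loops: 8 contacts is the lowest count in the list.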

Other observations

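Chromosome X was set apart from the autosomes. Its p end held 2 loops within 3 Mb, the first anchor starting at 2790001 (hg19), and its q end held 45, with a median span of 105 kb and a median contact depth of -0.14 (interval -0.26 to 0.02) on the autosomal scale. The 1898 loops elsewhere on X had a depth of -0.20 (-0.23 to -0.16). The outermost part of Xp is the pseudoautosomal region, which is shared with Y and in which reads are hard to assign.

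Another 168 autosomal loops touched an end window without lying wholly inside it. They spanned a median of 467.5 kb, up to 7920 kb, with a median ratio of observed to expected contacts of 5.34 and a median contact depth of -0.20.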
